A study of Mus musculus with 6 samples.

Results

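The genes described here are the subunits and inhibitors of NF-kB, 10 in all, chosen by gene symbol from the 14238 genes of the table. They comprise the subunit genes Nfkb1, Nfkb2, Rel, Rela and Relb and the inhibitor genes Nfkbia, Nfkbib, Nfkbie, Nfkbiz and Tnfaip3. All 10 had a row and all 10 passed the low-count filter. They were measured by RNA sequencing of polyA-selected RNA from Ba/F3, a mouse pro-B line, long established in culture, whose growth needs interleukin-3. Every library came from cells transduced with the ETV6::FRK fusion, the transcription factor gene ETV6 joined to the tyrosine kinase gene FRK, in a retroviral system that doxycycline switches on. The 3 induced libraries came from cells given 500 ng/ml doxycycline, and the 3 control libraries from cells of the same kind given none, with RNA taken at 48 h.

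The libraries of each group are titled EF1, EF2 and EFPC, so that each induced library has a control library of the same title prefix, called its pair here. What the prefixes stand for, and whether they are clones, is not given in the labels. The titles of the induced libraries also carry IL3n and those of the controls IL3p, which may mean that interleukin-3 was absent or present, though the protocols do not say so. Doxycycline, the fusion and the IL3 mark change together and cannot be told apart. The labels name triplicate cultures and do not say whether these were set up independently, so the p-values speak only to the spread among the 3 cultures of a group, which may be technical.

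NF-kB is a family of dimeric transcription factors. In resting cells the dimers are held in the cytoplasm by inhibitors of the IkB family, until a kinase complex marks the inhibitor for destruction and the dimer enters the nucleus. Several of its target genes encode inhibitors, Nfkbia and Tnfaip3 among them, so that their transcripts are commonly read as a trace of NF-kB activity. In lymphoid cells the pathway is known for survival, activation and cytokine production.

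Total read counts were 31138705 to 43177842 in induced and 30970019 to 40179759 in control libraries. Levels are given as CPM (reads per gene scaled to library size, with TMM factors). Etv6 is the mouse counterpart of the transcription factor gene in the fusion. It had 259, 230 and 120 CPM in the induced EF1, EF2 and EFPC libraries, against 86.2, 81.3 and 94.6 CPM in the control ones. Frk had no row under that symbol and was not analysed here. A list of interferon-response genes, of which 26 of 30 had a row, summed to 12254, 6989 and 1148 CPM in the induced libraries and to 1007, 1265 and 747 CPM in the controls, with 24 of the 26 called higher by DESeq2, beside 4.13% of its genes, and 20 with the pairs as a block, beside 6.23%. edgeR called 0 of the 26, beside 0% of all genes. The induced EFPC library therefore stood apart from the other two on both measures. Of 20 pro-B cell markers 5 had a row, the summed level being 543 to 733 CPM in induced and 469 to 536 CPM in control libraries. The sum does not stand for each marker, as 2 of the 5 had log2 fold changes above 0 and 3 below, with a median of -0.32. Cd79a, a B-cell receptor component, was at 0.616 and 1.35 CPM on average in induced and control cells, and Pax5 and Ebf1 were not analysed here. Of 16 monocyte and neutrophil markers 9 had a row and summed to 89.8 to 315 CPM in induced and 132 to 254 CPM in control libraries, lowest in the induced EFPC library. T and NK cell markers (2 of 14) summed to 8.0 to 11.5 and 7.36 to 8.07 CPM, and fibroblast markers (3 of 12, mostly Vim, which many cells express) to 206 to 419 and 520 to 589 CPM in induced and control libraries. DESeq2 called 2 of the 3 fibroblast markers and 1 of 8 tested monocyte and neutrophil markers lower, beside 2.58% of its genes. It called 0 markers of the 4 cell type lists higher, beside 4.13%. With the pairs as a block it called as many lower in each list, beside 4.58%. The block also gave 2 of the 5 pro-B markers as higher, beside 6.23%. edgeR called 0 of the markers, beside 0% of all genes. Bulk RNA cannot tell fewer cells of a type from less RNA per cell.

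Per transcript length, Nfkb1 had the highest level of the 10 genes in both groups. Its TPM (read counts scaled by the authors to transcript length and library total) averaged 149 ± 73.4 in induced and 132 ± 34.8 in control cells (SD, n = 3 each). In induced cells it was followed by Rela at 59.6 ± 5.75, Nfkbib at 51.0 ± 15.5, Nfkb2 at 42.6 ± 25.4, Nfkbia at 40.6 ± 24.3, Relb at 21.9 ± 21.0 and Nfkbie at 20.3 ± 8.93 TPM. Rel, Nfkbiz and Tnfaip3 were lowest there, at 6.59 ± 2.87, 3.95 ± 1.93 and 3.14 ± 1.59 TPM. From Rela to Nfkbie the ranges of neighbours in that order overlapped, as did those among the lowest 3, while Nfkb1 lay above Rela and Nfkbie above Rel in every induced library. In control cells Nfkbia, at 88.3 ± 35.7 TPM, overlapped the range of Nfkb1 and lay above Rela, at 43.1 ± 4.09 TPM, in every library. Nfkb2, Nfkbib, Relb and Nfkbie had 40.0 ± 2.07, 38.2 ± 4.52, 22.6 ± 7.83 and 15.7 ± 2.39 TPM in control cells, and Tnfaip3, Nfkbiz and Rel 5.08 ± 1.78, 4.805 ± 2.04 and 4.34 ± 0.840 TPM. Among these the ranges of Rela, Nfkb2 and Nfkbib overlapped from neighbour to neighbour, as did those of Relb and Nfkbie and those of the lowest 3.

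**Figure D1:**
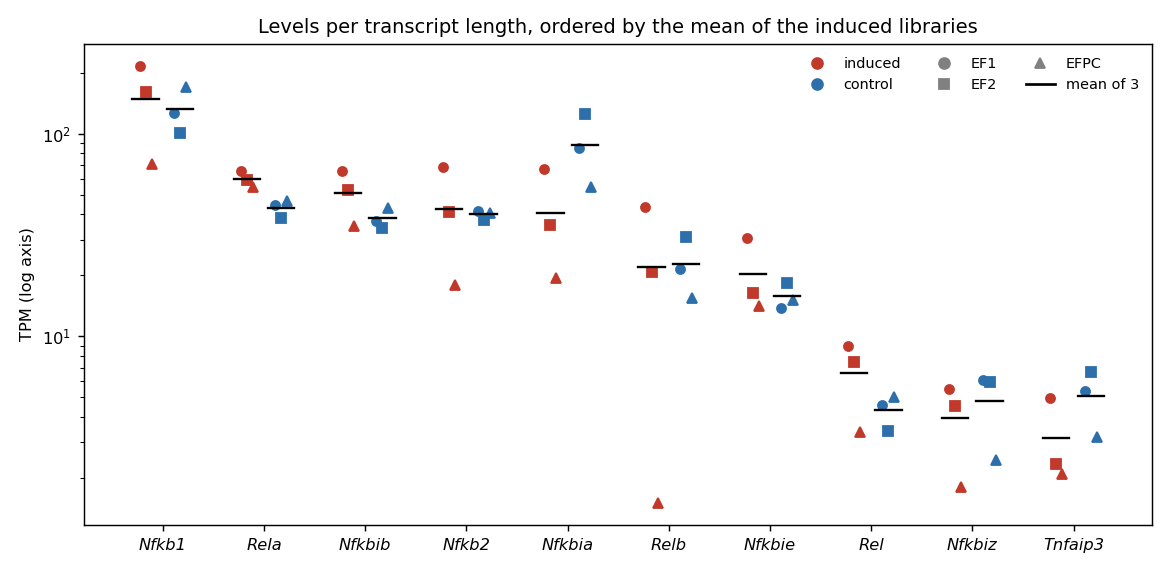
TPM of the 10 genes on a log axis, ordered by the mean of the induced libraries. Red points are induced and blue points control libraries, circles, squares and triangles mark EF1, EF2 and EFPC, and the lines are means of 3. Nfkb1 is highest in both groups, Nfkbia is next to it in control cells, averaging 88.3 TPM against 40.6 TPM in induced cells, and the induced EFPC library is lowest for Relb at 1.502 TPM.

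In the comparison of induced with control cells, none of the 10 genes passed edgeR's quasi-likelihood test with Benjamini-Hochberg adjustment over 13260 genes at a threshold of 0.05. The same test called 0% of all genes higher and 0% lower. At an unadjusted p under 0.05 edgeR had 2 of the 10, Rela and Nfkbia, against 17.6% of all genes tested. DESeq2 and limma-voom also called 0 of the 10, where DESeq2 called 4.13% of its genes higher and 2.58% lower. DESeq2 had the same 2 genes at an unadjusted p under 0.05, against 19.4% of all genes. The title prefixes pair the libraries, and with the pair as a block DESeq2 called 1 of the 10, Nfkbia, lower and 0 higher, where it called 4.58% of its genes lower and 6.23% higher. The block in edgeR called 0, with 4 of the 10 at an unadjusted p under 0.05 against 22.2% of all genes. Over the 10 genes the log2 fold changes had a median of 0.04, beside -0.01 over the 13260 tested.

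**Figure D2:**
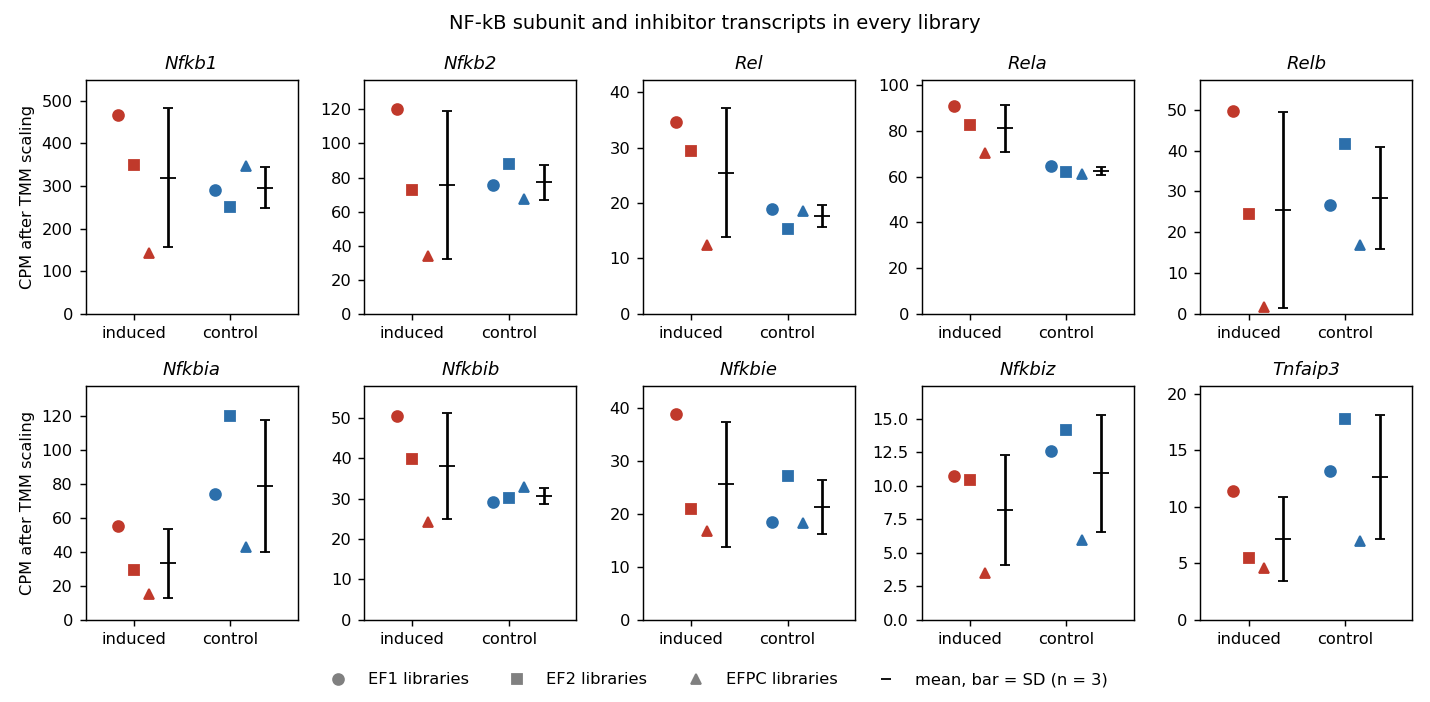
CPM after TMM scaling of each of the 10 genes, 1 panel a gene, with induced libraries in red at the left and control libraries in blue at the right. Symbols mark the EF1, EF2 and EFPC libraries, and the black marks give the mean and SD of 3. Of the 10 genes, Rela alone has groups that do not overlap, and the induced EFPC library is the lowest induced one for every gene.

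Among the subunits that act in the canonical pathway, Rela had the least spread. It encodes the main transactivating subunit and lies on chromosome 19, 5637442 to 5648134 (GRCm38.p6). Rela had 90.8, 82.7 and 70.2 CPM in the induced EF1, EF2 and EFPC libraries, against 64.7, 62.0 and 61.0 CPM in the control ones. Every induced library lay above every control library, which held for 1 of the 10 genes beside 11.2% of all genes tested. Its log2 fold change was 0.38 (SE 0.141), with an adjusted p of 0.239 by edgeR and 0.170 by DESeq2. Within the pairs the log2 differences were 0.49, 0.42 and 0.20, so Rela was higher in 3 of 3 pairs, as were 21.2% of all genes.

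Nfkb1 encodes a precursor that is processed to a DNA-binding subunit without a transactivation domain (chromosome 3, 135584655 to 135691969). It had 466, 349 and 143 CPM in the induced EF1, EF2 and EFPC libraries, against 290, 251 and 347 CPM in the control ones. The induced EF1 and EF2 libraries were above or level with the highest control, and the induced EFPC library was below the lowest. The log2 fold change of Nfkb1 was 0.11 (SE 0.396, edgeR adjusted p = 0.910) with the pairs left out of the fit, and -0.02 with the replicate block. Its pairs differed in sign, the EF1 and EF2 pairs being higher and the EFPC pair lower in the induced library. Rel, which encodes the subunit best known from activated lymphocytes (chromosome 11, 23736847 to 23770969), had 34.7, 29.4 and 12.3 CPM in induced libraries, against 19.0, 15.4 and 18.5 CPM in control ones. Here too 2 induced libraries exceeded all controls and the induced EFPC library fell short of all. The log2 fold change of Rel was the highest of the 10, 0.53 (SE 0.359, edgeR adjusted p = 0.473).

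Nfkb2 and Relb form the dimer of the non-canonical pathway. Nfkb2, whose precursor also restrains RelB (chromosome 19, 46300994 to 46312400), had 121, 72.7 and 33.9 CPM in the induced EF1, EF2 and EFPC libraries, against 75.7, 88.1 and 67.6 CPM in the control ones. The controls lay close together while the induced libraries spread to both sides of them. Its log2 fold change was -0.03 (SE 0.408, edgeR adjusted p = 0.982). Relb (chromosome 7, 19606217 to 19629438) had 49.8, 24.5 and 1.71 CPM in induced libraries, against 26.7, 41.6 and 16.8 CPM in control ones. The value of the induced EFPC library rested on 76 reads, beside 613 reads in its control, and the induced EF1 library was the highest of all 6. The log2 fold change of Relb was -0.17 (SE 0.931, edgeR adjusted p = 0.946). This value depended on the fit, being -0.94 with the replicate block in edgeR and -1.19 with limma-voom.

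Nfkbia encodes IkB-alpha, the inhibitor that NF-kB itself induces and that then ends NF-kB activity (chromosome 12, 55489409 to 55492647). It had 55.2, 29.5 and 14.9 CPM in the induced EF1, EF2 and EFPC libraries, against 74.0, 120 and 42.6 CPM in the control ones. Each induced library was below its own control, though the induced EF1 library was above the control EFPC library, so the groups overlapped. The means were 33.2 ± 20.4 CPM in induced and 78.8 ± 38.8 CPM in control cells (SD, n = 3 each). The log2 fold change was -1.25 (SE 0.529), the lowest of the 10 genes, and 0.890% of all genes had one as low or lower. The adjusted p was 0.284 by edgeR and 0.126 by DESeq2. With the pair as a block, Nfkbia fell by 1.31 on the log2 scale by DESeq2 (adjusted p = 0.00193), and the edgeR adjusted p was 0.152. Within the EF1, EF2 and EFPC pairs the log2 differences were -0.42, -2.02 and -1.51, that is, the induced library held 0.746, 0.246 and 0.350 of the level of its control.

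Tnfaip3 encodes A20, a ubiquitin-editing enzyme that shuts off signalling to the IkB kinase (chromosome 10, 19000910 to 19015410). It had 11.4, 5.45 and 4.55 CPM in the induced EF1, EF2 and EFPC libraries, against 13.2, 17.8 and 6.95 CPM in the control ones. All 3 pairs had the lower value in the induced library, and the groups overlapped. Its log2 fold change was -0.83 (SE 0.458, edgeR adjusted p = 0.386). Nfkbiz, which encodes a nuclear IkB protein that acts as a cofactor on secondary response genes (chromosome 16, 55811375 to 55838954), had 10.7, 10.4 and 3.49 CPM in induced libraries, against 12.6, 14.2 and 5.99 CPM in control ones. Again each pair had the lower value in the induced library, with log2 differences of -0.23, -0.44 and -0.77. The log2 fold change of Nfkbiz was -0.41 (SE 0.489, edgeR adjusted p = 0.693). Nfkbia, Nfkbiz and Tnfaip3 were thus the 3 of 10 genes lower in all 3 pairs, which 25.8% of all genes were.

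The other IkB genes did not share this sign in every pair. Nfkbib, which encodes IkB-beta (chromosome 7, 28758251 to 28766644), had 50.4, 39.9 and 24.2 CPM in the induced EF1, EF2 and EFPC libraries, against 29.2, 30.1 and 32.9 CPM in the control ones. Its induced EF1 and EF2 libraries lay above all controls and its induced EFPC library below them, the same arrangement as in Rel. Nfkbie, which encodes IkB-epsilon (chromosome 17, 45555700 to 45563169), had 38.8, 20.9 and 16.8 CPM in induced libraries, against 18.5, 27.1 and 18.2 CPM in control ones. The log2 fold changes were 0.31 (SE 0.259) for Nfkbib and 0.26 (SE 0.336) for Nfkbie, with edgeR adjusted p values of 0.560 and 0.718.

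The promoters are shown for Nfkbia and Tnfaip3, which were lower together within the pairs, for Ltb, the lymphotoxin beta gene whose levels ran closest to those of Nfkbia, and for Rel and Rela, the subunits with the highest fold changes. Each is the 250 bases before the annotated start from RefSeq (GRCm38.p6), 5′ to 3′ on the gene's strand, with matches to the kappa-B motif on either strand in capitals. The motif was taken as GGG and TTCC with NNN between them, N being any base. The start listed for the Rela promoter lies inside the gene span given above.
Nfkbia promoter, chr12:55492648-55492897, minus strand: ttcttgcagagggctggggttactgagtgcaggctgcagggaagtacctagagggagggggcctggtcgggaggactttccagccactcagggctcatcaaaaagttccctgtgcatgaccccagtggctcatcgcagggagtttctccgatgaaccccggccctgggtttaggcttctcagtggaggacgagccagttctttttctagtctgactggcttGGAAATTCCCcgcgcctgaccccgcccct
Tnfaip3 promoter, chr10:19015411-19015660, minus strand: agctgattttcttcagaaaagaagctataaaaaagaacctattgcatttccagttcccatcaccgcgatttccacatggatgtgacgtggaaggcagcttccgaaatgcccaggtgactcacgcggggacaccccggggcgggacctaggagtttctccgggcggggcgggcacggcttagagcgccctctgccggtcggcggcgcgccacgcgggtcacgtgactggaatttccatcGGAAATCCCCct
Ltb promoter, chr17:35194257-35194506, plus strand: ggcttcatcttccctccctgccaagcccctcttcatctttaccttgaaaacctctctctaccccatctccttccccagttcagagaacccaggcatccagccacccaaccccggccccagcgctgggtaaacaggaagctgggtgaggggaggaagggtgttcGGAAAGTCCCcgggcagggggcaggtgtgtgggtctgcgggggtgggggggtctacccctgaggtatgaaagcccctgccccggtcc
Rel promoter, chr11:23770970-23771219, minus strand: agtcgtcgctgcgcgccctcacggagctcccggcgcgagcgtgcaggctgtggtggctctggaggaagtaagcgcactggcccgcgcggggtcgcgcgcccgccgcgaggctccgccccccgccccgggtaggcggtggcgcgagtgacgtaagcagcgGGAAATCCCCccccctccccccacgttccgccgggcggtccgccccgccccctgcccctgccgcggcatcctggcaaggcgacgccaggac
Rela promoter, chr19:5637291-5637540, plus strand: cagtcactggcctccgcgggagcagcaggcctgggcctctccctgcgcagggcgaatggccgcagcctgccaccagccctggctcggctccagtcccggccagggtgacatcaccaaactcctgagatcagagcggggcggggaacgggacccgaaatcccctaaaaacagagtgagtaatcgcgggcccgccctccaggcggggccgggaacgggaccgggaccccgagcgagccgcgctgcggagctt
Nfkbia matched once, as GGAAATTCCC, its leftmost base 29 bases before the start, and Tnfaip3 once in the promoter shown, as GGAAATCCCC at 12 bases. Ltb held GGAAAGTCCC at 87 bases and Rel GGAAATCCCC at 91 bases, and the letters were not in the window of Rela. Of the 10 genes 7 had a promoter in the table, namely all but Nfkb1, Relb and Nfkbiz, and 5 of these 7 held the motif in at least 1 listed promoter, beside 4.65% of all 32851 promoters. The count is by gene, with 3 promoters listed for Nfkb2 and 2 for Tnfaip3, while the motif shares are by promoter. The 5 were Nfkb2, Rel, Nfkbia, Nfkbie and Tnfaip3, so genes with the motif had values in opposite directions. The STAT motif TTCNNNGAA, which 7.02% of promoters held, was in Ltb and in 1 of the 7, Nfkb2, and the interferon-stimulated motif, a pair of GAAA with NN between them, which 2.98% held, in none of them. In the promoters shown these matches did not overlap the kappa-B ones. A match of letters does not show that a factor binds.

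The pairs differed in how the genes moved. In the EF1 pair 7 of the 10 genes were higher in the induced library, beside 46.2% of all genes, and in the EF2 pair 4 of the 10, beside 49.3%. In the EFPC pair 9 of the 10 were lower in the induced library, all but Rela, beside 52.1% of all genes. The median log2 difference of the 10 was 0.68 in the EF1, -0.33 in the EF2 and -0.69 in the EFPC pair, against medians of -0.04, -0.01 and -0.02 over all genes. Relb ranged furthest, with log2 differences of 0.90, -0.76 and -3.26, and 0.271% of all genes had a difference as low or lower in the EFPC pair. Nfkb1 had 0.68, 0.48 and -1.28, Nfkb2 0.67, -0.28 and -0.99, Rel 0.87, 0.94 and -0.59, Nfkbib 0.79, 0.40 and -0.44, Nfkbie 1.07, -0.38 and -0.11, and Tnfaip3 -0.20, -1.70 and -0.60 in the EF1, EF2 and EFPC pairs.

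**Figure D3:**
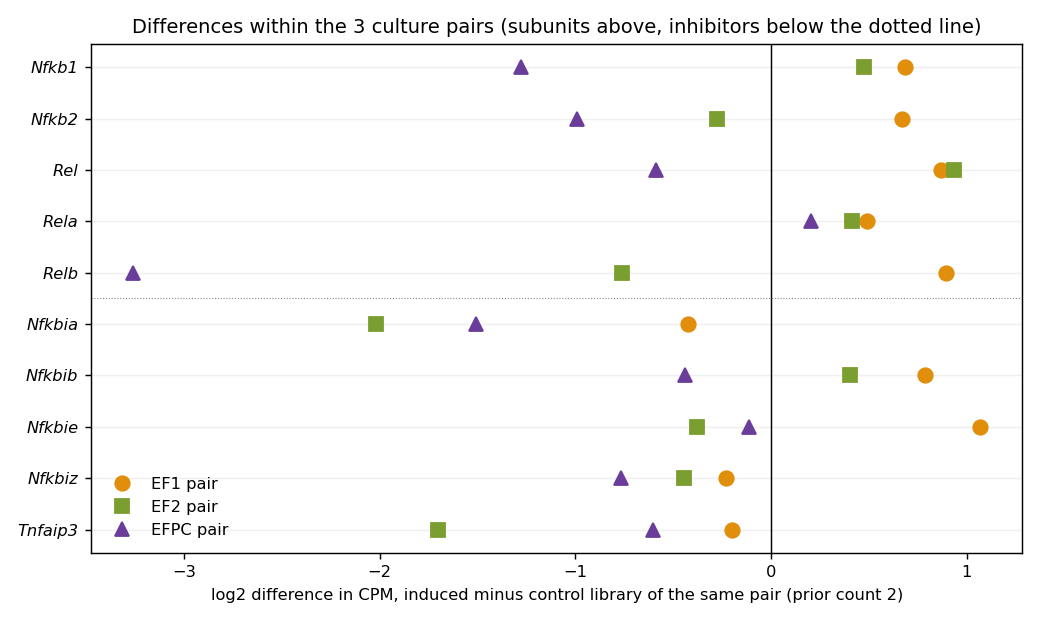
Log2 difference in CPM between the induced and the control library of each pair, for the 5 subunit genes above and the 5 inhibitor genes below the dotted line. Circles, squares and triangles mark the EF1, EF2 and EFPC pairs. Rela is to the right of 0 in all pairs, Nfkbia, Nfkbiz and Tnfaip3 are to the left in all pairs, and Relb reaches -3.26 in the EFPC pair.

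The EFPC pair was set against the EF1 and EF2 pairs with an interaction of group and prefix, a contrast chosen after the low values of the induced EFPC library were seen. The fit treats EF1 and EF2 as replicates and assumes that the EFPC libraries, 1 in each group, vary like them. Its p-values are therefore no independent evidence, and an effect of the prefix and variation of a single library cannot be told apart. In this fit Nfkb1 had a log2 difference between the EFPC pair and the other pairs of -1.87 (edgeR adjusted p = 0.0371), and Relb one of -3.42 (edgeR adjusted p = 0.0442). These were 2 of the 10 genes called lower, beside 1.56% of all genes, and 0 of the 10 were called higher, beside 0.392%. DESeq2 called Nfkb1, Relb and Rel lower, with log2 differences of -1.88 (SE 0.349), -3.43 (SE 0.572) and -1.498 (SE 0.404) and adjusted p values of 6.09e-06, 2.28e-07 and 0.00679, beside 4.04% of its genes. For Rel the edgeR adjusted p was 0.0711. Nfkbia and Tnfaip3 had log2 differences between the pairs of -0.32 and 0.27 (edgeR adjusted p = 0.837 and 0.877), the SE by DESeq2 being 0.511 and 0.615. The Etv6 level, the summed interferon-response genes and the summed monocyte and neutrophil markers, given above, were also lowest among induced libraries in the EFPC one, and their part in these differences was not tested.

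Without the EFPC libraries of both groups, edgeR called 3 of the 10 genes. Rel and Nfkbib rose, by log2 fold changes of 0.90 and 0.61 (adjusted p = 0.0181 and 0.0469), beside 9.81% of all genes, and Nfkbia had a log2 fold change of -1.19 (adjusted p = 0.0452), beside 6.37% of all genes called lower. DESeq2 without these libraries called Nfkb1, Rel, Rela and Nfkbib higher, at 0.61, 0.92, 0.47 and 0.63 (adjusted p = 0.0161, 5.53e-04, 0.0470 and 0.0172), beside 13.2% of its genes. It called Nfkbia and Tnfaip3 lower, at -1.17 and -0.85 (adjusted p = 7.10e-04 and 0.0456), beside 8.55% of its genes. Without the induced EFPC library alone edgeR called Rel, with a log2 fold change of 0.87 (adjusted p = 0.0346), beside 4.63% of all genes called higher, and called 0 of the 10 lower, beside 2.04%. Without the EF1 or the EF2 libraries of both groups neither tool called any of the 10, where edgeR called 0 genes and DESeq2 called 0.314% higher and 0.124% lower without EF1, and 0.660% higher and 0.445% lower without EF2.

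The balance of transcripts between subunits and Nfkbia is given as a ratio of TPM, with no test. Rela reached 0.980, 1.66 and 2.80 times the level of Nfkbia in the induced EF1, EF2 and EFPC libraries, against 0.524, 0.307 and 0.850 times in the control ones. Every induced library had a higher ratio than every control library. Rela alone had groups that did not overlap and Nfkbia had the lowest fold change of the members, so this separation follows in part from values given above. Nfkbia made up 38.6%, 31.9% and 26.8% of the summed TPM of the 5 inhibitor genes in induced libraries, against 57.6%, 65.8% and 46.1% in control libraries, again without overlap. The share too follows in part from the low fold change of Nfkbia, whose own levels overlapped between the groups. The ratio of the summed subunits to the summed inhibitors overlapped, at 2.32, 2.59 and 2.05 in induced and 1.62, 1.11 and 2.34 in control libraries. Both sums were lowest in the induced EFPC library, at 148 TPM for the subunits and 72.3 TPM for the inhibitors. The subunit sums were 403 and 288 TPM in the induced EF1 and EF2 libraries and 239, 211 and 277 TPM in the controls. The inhibitor sums were 174 and 111 TPM in the induced EF1 and EF2 libraries and 147, 191 and 118 TPM in the controls.

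Of the kinases and adaptors upstream of the IkB proteins, all 29 listed genes were tested, and 0 were called by edgeR while 1 rose by DESeq2, beside 4.13% of its genes, a share near that of the list. It was Rnf31, which encodes the catalytic subunit of the linear ubiquitin ligase complex, at 87.9, 51.1 and 34.4 CPM in the induced EF1, EF2 and EFPC libraries, against 28.8, 25.6 and 30.5 CPM in the control ones. Its log2 fold change was 1.05 (SE 0.350, DESeq2 adjusted p = 0.0452), and all induced libraries were above all controls, as in 11.2% of all genes tested. With the pair as a block DESeq2 called 2 of the 29 higher, beside 6.23% of its genes, adding Ripk1, a kinase that binds receptor complexes, named after its values were seen (adjusted p = 0.0420). The log2 fold changes of the list had a median of 0.20, with 24 of 29 values above 0, beside 6434 of 13260 over all genes, and the medians within the EF1, EF2 and EFPC pairs were 0.25, 0.25 and 0.09. The subunits of the IkB kinase were examined after their values were seen and did not pass: Chuk, Ikbkb and Ikbkg had log2 fold changes of 0.30, 0.17 and 0.23 (edgeR adjusted p = 0.308, 0.480 and 0.404).

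Among other NF-kB inhibitors and nuclear IkB proteins, 14 of 17 listed genes were tested, 0 were called by edgeR, and DESeq2 called 0 higher and 1 lower, beside 4.13% and 2.58% of its genes. Zc3h12a, which encodes an RNase that degrades inflammatory transcripts, had 11.4, 7.26 and 7.82 CPM in the induced EF1, EF2 and EFPC libraries, against 20.2, 24.2 and 14.8 CPM in the control ones. All induced libraries were below all controls, as in 1719 of the 13260 genes tested. Zc3h12a fell by 1.15 on the log2 scale (SE 0.291, DESeq2 adjusted p = 0.00384), and the edgeR adjusted p was 0.153. The list's median was 0.04. Bcl3, another nuclear IkB gene, was not analysed here.

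Of the receptors upstream of NF-kB, 13 of 22 were tested, 0 were called by edgeR and 1 rose by DESeq2, beside 4.13% of its genes. Nod1, a cytosolic sensor of bacterial cell wall fragments, had 5.29, 3.71 and 0.518 CPM in the induced EF1, EF2 and EFPC libraries, against 0.723, 0.768 and 0.439 CPM in the control ones. Its log2 fold change was 2.32 (SE 0.722, DESeq2 adjusted p = 0.0278), and the induced EFPC library lay within the range of the controls. The median log2 difference of the list was 1.02, 0.85 and -0.27 within the EF1, EF2 and EFPC pairs, with 12, 10 and 3 of 13 genes higher in the induced library, beside 46.2%, 49.3% and 47.9% of all genes. Tlr4, the receptor for bacterial lipopolysaccharide, named after its values were seen, had 84.1, 54.8 and 6.94 CPM in induced libraries, against 31.9, 24.1 and 24.8 CPM in control ones (edgeR adjusted p = 0.572).

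Ligands and target genes of NF-kB moved in both directions. Of 35 listed genes 18 were tested, 0 were called by edgeR, and DESeq2 called 4 higher and 1 lower, beside 4.13% and 2.58% of its genes. The log2 fold changes of the list had a median of 0.68, and the log2 differences medians of 1.12, 0.73 and -0.21 within the EF1, EF2 and EFPC pairs. Il6, the gene of the cytokine interleukin-6, had 99.9, 49.97 and 18.6 CPM in the induced EF1, EF2 and EFPC libraries, against 11.9, 12.4 and 11.1 CPM in the control ones. All induced libraries were above all controls, as in 11.2% of all genes tested. The log2 fold change of Il6 was 2.27 (SE 0.502, DESeq2 adjusted p = 5.20e-04, edgeR adjusted p = 0.161).

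Ltb had 29.0, 24.4 and 14.6 CPM in the induced EF1, EF2 and EFPC libraries, against 58.0, 110 and 37.8 CPM in the control ones. All induced libraries were below all controls, as in 1719 of the 13260 genes tested. Ltb fell by 1.58 on the log2 scale (SE 0.422, DESeq2 adjusted p = 0.00671, edgeR adjusted p = 0.165), and its DESeq2 adjusted p was 6.63e-06 with the pair as a block. Irf1, a transcription factor gene that belongs to the interferon-response list as well, had 301, 136 and 20.7 CPM in the induced EF1, EF2 and EFPC libraries, against 19.5, 23.4 and 17.4 CPM in the control ones. Icam1, an adhesion molecule gene, had 115, 71.8 and 33.7 CPM in induced libraries, against 29.0, 32.5 and 34.6 CPM in control ones. Both rose by DESeq2, with log2 fold changes of 2.95 and 1.22 (adjusted p = 0.0329 and 0.0447), though the induced EFPC library lay within the control range in each. With the pair as a block DESeq2 called 4 genes of the list higher and 2 lower, beside 6.23% and 4.58% of its genes. The call of Irf1 was lost (adjusted p = 0.0852), and Cflar (adjusted p = 0.0368), an inhibitor of caspase activation, was gained as higher and Sod2 (adjusted p = 0.0358), a mitochondrial superoxide dismutase gene, as lower, both named after their values were seen. Xiap, an inhibitor of caspases that the naming rule passed over, was the other gene that rose, at 120, 155 and 163 CPM in induced libraries, against 85.8, 76.2 and 112 CPM in control ones. Its log2 fold change was 0.69 (DESeq2 adjusted p = 0.0451), and all induced libraries were above all controls, as in 11.2% of all genes tested. Tnf, the gene of tumour necrosis factor, had a log2 fold change of -0.26 (edgeR adjusted p = 0.833) and is named after its values were seen.

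**Figure D4:**
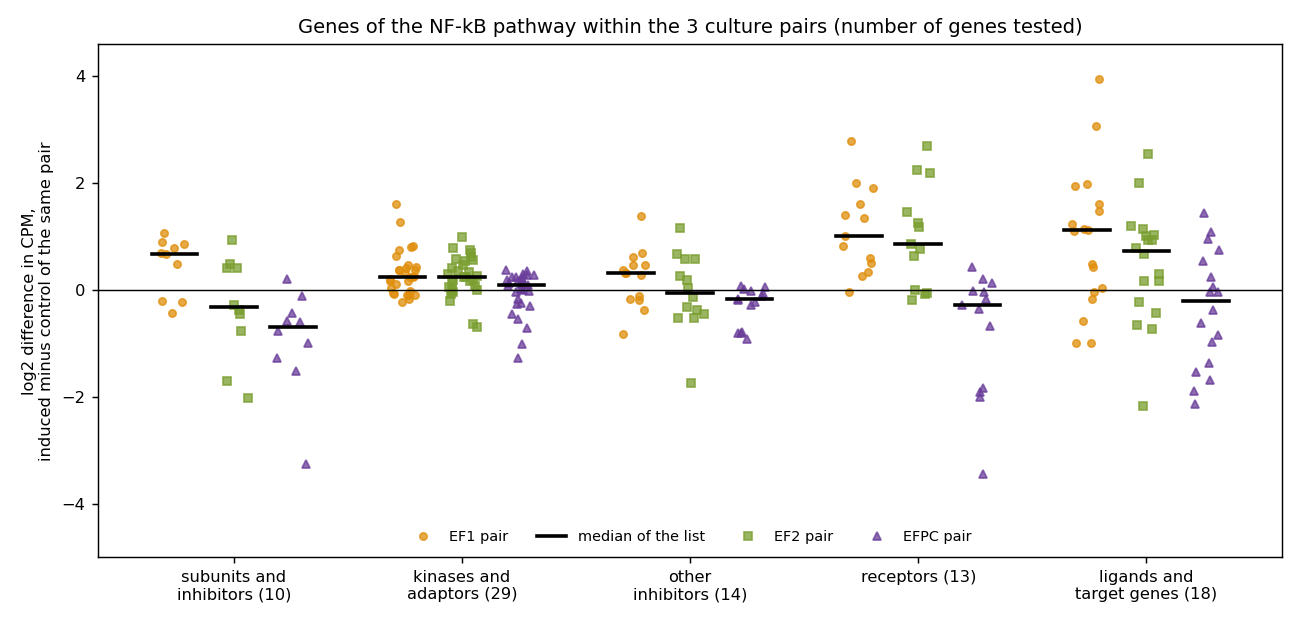
Log2 difference in CPM between the induced and the control library of the same pair for every tested gene of 5 lists, the number of genes in brackets. Circles, squares and triangles are the EF1, EF2 and EFPC pairs, points are spread sideways for legibility, and black bars are list medians. The medians of receptors and of ligands and target genes are above 0 in the EF1 and EF2 pairs and at -0.27 and -0.21 in the EFPC pair.

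For the member with the highest and the member with the lowest fold change, the genes with the most similar course over the 6 libraries were sought among 9484 genes that averaged 5 CPM or more. Similarity was the root mean square difference of log2 CPM after subtracting each gene's mean. Nearest to Rel were Clic4, a chloride channel gene, at 0.0908, Slc7a1, a cationic amino acid transporter gene, at 0.0910, and St6galnac4, a sialyltransferase gene, at 0.109. Slc7a1 had 538, 549 and 197 CPM in the induced EF1, EF2 and EFPC libraries, against 333, 246 and 313 CPM in the control ones. Nearest to Nfkbia were Ltb at 0.293, Tnfaip3 at 0.334 and Dact3, which encodes an antagonist of WNT signalling, at 0.413. The neighbours of Nfkbia were further from it than those of Rel were from Rel. The 6 libraries include pairs that share a prefix, and the measure is a description with no test.

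**Figure D5:**
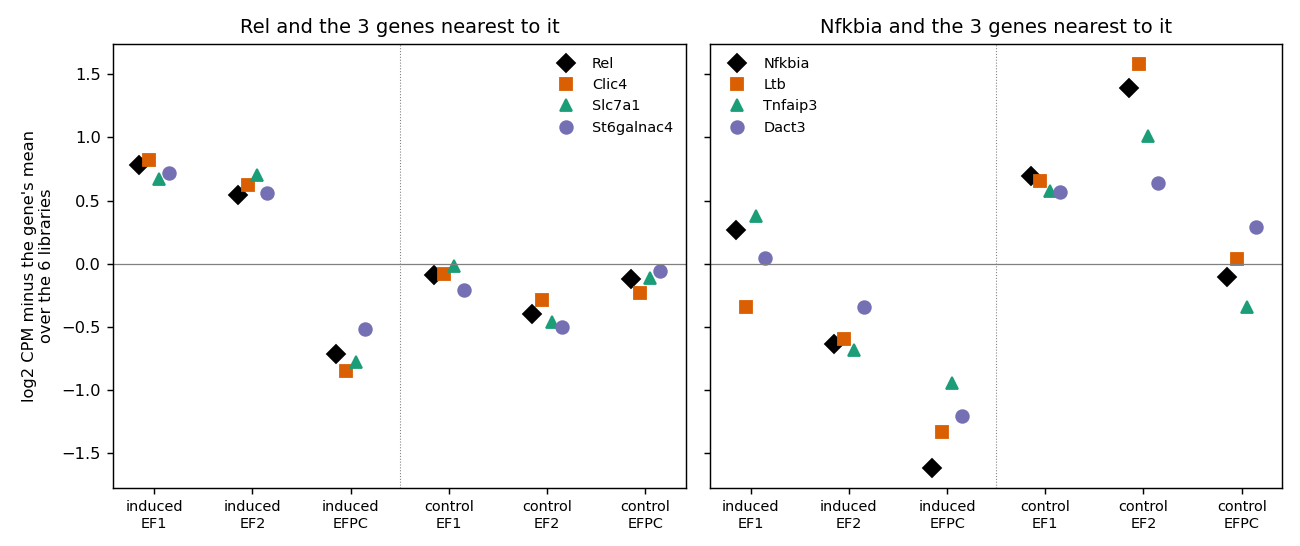
Log2 CPM minus each gene's mean over the 6 libraries, for Rel with its 3 nearest genes at the left and Nfkbia with its 3 nearest genes at the right. Induced libraries are left of the dotted line and control libraries right of it. Rel and its neighbours are high in the induced EF1 and EF2 libraries and lowest in the induced EFPC library, and Nfkbia, Ltb, Tnfaip3 and Dact3 are each highest in the control EF2 library and lowest in the induced EFPC library.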

How the data were processed

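RNA from 3 induced and 3 control cultures was analysed. The submitters' processing notes list HISAT2, DESeq2 and mm10, and no source used here gives the counting program or annotation. Raw counts of reads for each gene, deposited by the authors, are the basis of the tests, beside TPM values by the authors, used for levels between genes. FPKM values, log2 expression values, mean signal, fold change scores and p-values of the authors' own comparison were deposited too and not used here. Each listed gene has at least 1 read in all 6 libraries.

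The tests ran in R 4.3.3, by edgeR 4.0.16 (quasi-likelihood test, TMM scaling, filterByExpr, group as the only term, Benjamini-Hochberg adjustment over 13260 genes, threshold 0.05), with DESeq2 1.42.0 and limma 3.58.1 voom as alternatives. The SE of an edgeR log2 fold change is its size over the square root of F. Values within pairs use CPM with a prior count of 2. Coordinates and promoters come from the RefSeq tables of GRCm38.p6, the same build as mm10.

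The labels number replicates 1 to 3 alike in both groups, and the numbers were taken to pair the libraries. Over 13260 genes the deviations from the group mean of same-numbered libraries correlated at 0.17, 0.34 and 0.35 for EF1, EF2 and EFPC. Libraries of different number correlated at 0.15 (induced EF2, control EF1) and 0.099 (induced EF1, control EF2), and at -0.40 to -0.18 where 1 was EFPC. The correlations thus set EFPC apart but barely tell EF1 from EF2. Fits with and without this block, other scalings and filters, and fits without each library or pair were compared. Scripts were tested on simulated data.

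The members and lists were chosen with earlier results of these data known. The naming rule took all members, Etv6, up to 4 called genes of each pathway list and the 3 genes nearest to each extreme member. It was applied to DESeq2 calls, as edgeR called none, and fewer interferon-response genes are named than it allows. Reads shared by similar genes and strand handling in counting are not described in the sources used here.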

Additional observations from a re-analysis of the deposited data

Results flagged for a closer look

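Nfkb1 and Relb are listed because their values under the contrast of induced with control cells were lower in the EFPC pair than in the EF1 and EF2 pairs. The log2 difference between the effects was -1.87 for Nfkb1, whose effects were -1.28 in the EFPC pair and 0.58 on average in the EF1 and EF2 pairs. It was -3.42 for Relb, whose effects were -3.26 in the EFPC pair and 0.07 on average in the other two. Both passed the threshold in an interaction fit by edgeR (adjusted p = 0.0371 for Nfkb1 and 0.0442 for Relb). This fit was added after the EFPC values were seen and has 1 EFPC library in each group, so an effect of the prefix and variation of a single library cannot be told apart.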

How the results depend on the processing

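The count of members called, 0 higher and 0 lower, was the same with DESeq2's size factors in edgeR, limma-voom, no low-count filter, a minimum mean of 1 CPM, and the replicate block in edgeR. The replicate block in DESeq2 called 1 member lower and changed no other member's call. Over all genes, where edgeR called 0 in each direction, DESeq2 called 553 higher and 346 lower, and 767 and 564 with the replicate block. Leaving out a library or a pair in edgeR gave 0 to 2 members higher and 0 to 1 lower, and 0 to 1300 genes higher and 0 to 844 lower. The highest counts came without replicate 3, the EFPC libraries. Leaving out a pair in DESeq2, added after seeing the data, gave 0 to 4 members higher and 0 to 2 lower, and 43 to 1666 genes higher and 17 to 1076 lower. Without each library or pair the median of the members ranged from -0.41 to 0.44. The log2 fold change of Nfkb1, 0.11, was -0.0126 with limma-voom, -0.0194 with the replicate block in edgeR and -0.00459 with it in DESeq2. That of Relb, -0.17, kept its sign in these fits but was larger, at -1.19, -0.94 and -0.99. Without each library or pair the log2 fold change ranged from -0.28 to 0.61 for Nfkb1, -0.54 to 0.34 for Nfkb2, -1.15 to 0.40 for Relb and -0.26 to 0.63 for Nfkbie. The other members kept their sign, though Nfkbib came to 0.026 without the EF1 libraries and Nfkbiz to -0.042 without the induced EFPC library. The cause was not tested. A prior count of 0.5 moved no pair difference by more than 0.0300. Relb, at 76 reads in the induced EFPC library, is the value most limited by depth.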
